A study of Mus musculus with 25 samples.

Results

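Peyer's patches are the lymphoid follicles of the small intestine wall, and their dendritic cells and macrophages sample material that crosses the overlying epithelium. Described here are 36 genes of blood vessels and extracellular matrix, out of 19938 genes named by array rows with 1 gene symbol, and their levels in sorted DN cDC, conventional dendritic cells (cDC) that lack CD11b, CD8a and CD4. The members were chosen by symbol because many of them were higher in untreated DN cDC than in untreated CD11b+ cDC in an earlier pass over these same arrays. That difference is therefore a description, and the counts of limma calls given for it stand beside their background share and support nothing about the members. Of the 36 members, 29 had a usable value in untreated DN cDC, CD11b+ cDC and macrophages, 27 had one in untreated CD8a+ cDC, and 23 had one in all 25 arrays. Eng, Sox18, Esam, Cd34, Lama4, Sparcl1 and Col3a1 have no value for DN cDC, because their array rows could not be placed with enough certainty, and are described after R848 only.

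All cells came from wild-type female C57BL/6 mice aged 6 to 8 weeks, and each replicate pooled the patches of 42 mice. Untreated groups were CD11b+ cDC (5 arrays), DN cDC (3), CD8a+ cDC (3), TIM-4- LysoMac (3) and TIM-4+ LysoMac (3), LysoMac being the lysozyme-expressing macrophages of the patch. The R848 groups were CD11b+ cDC (3 arrays) and CD8a+ cDC (5) taken 9 h after mice received R848, a TLR7 ligand, by gavage, although their titles also carry the words steady state. Per the labels, the patches were dissociated with collagenase, CD11c-bearing cells were pulled out with microbeads, and cDC were then sorted as CD11c-high, MHC class II+ and BST2- cells. CD11b+ and DN cDC were SIRPa+ and CD8a+ cDC SIRPa-, while LysoMac were SIRPa+, BST2+, CD4+ and low for MHC class II. These sort phenotypes name no marker of endothelial, pericyte or fibroblast lineage, either for selection or for exclusion. The labels place CD11b+ cDC, CD8a+ cDC and TIM-4+ LysoMac mainly in the interfollicular region, TIM-4- LysoMac in the subepithelial dome, and DN cDC in one or both of these zones. RNA was amplified from 2 to 20 ng per sample and hybridised to Affymetrix Mouse Gene 1.0 ST arrays, and all levels below are deposited log2 signals, on which a difference of 1 is a 2-fold change. Differences are given ± SE from a limma fit of all 7 groups, and the number of arrays is that of the groups named above.

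The vessel wall is lined by endothelial cells, which respond to VEGF through the receptors Flt1 and Kdr and to angiopoietins through Tek, are joined by Cdh5, and rest on a basement membrane of laminin, nidogen and type IV collagen. Pericytes, which carry Pdgfrb, wrap small vessels, and fibroblastic cells, many of which carry Pdgfra, build the interstitial matrix of fibrillar collagens and small proteoglycans. In a lymphoid organ these stromal cells form the vessels and the scaffold around which leukocytes, dendritic cells included, are arranged.

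RefSeq promoter sequence on GRCm38.p6 was available for 23 of the 36 members. The 150 bases before the start used in the RefSeq promoter table are shown for Sparc, Igfbp7, Emcn and Bgn, 4 of the 5 members with the largest differences, and for the VEGF receptors Flt1 and Kdr, since these genes carry the patterns described below. Capitals mark, on either strand, CAGGAA, a core bound by the ETS factors that many endothelial genes use, the related core CCGGAA, the GATA factor motif AGATAA, the GC box of SP1 factors, GGGCGG, and the TATA box, TATAAA. Neighbouring matches can overlap. The table's start is the outermost start of the gene for Sparc, Igfbp7 and Bgn, and lies 16, 427 and 617 bases inside it for Emcn, Flt1 and Kdr. The Flt1 and Kdr windows thus fall within the annotated gene.
Sparc, chr11:55420081-55420230, minus strand: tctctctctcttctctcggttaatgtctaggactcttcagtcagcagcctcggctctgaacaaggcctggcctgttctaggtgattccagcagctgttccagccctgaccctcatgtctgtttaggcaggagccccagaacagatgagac
Igfbp7, chr5:77408046-77408195, minus strand: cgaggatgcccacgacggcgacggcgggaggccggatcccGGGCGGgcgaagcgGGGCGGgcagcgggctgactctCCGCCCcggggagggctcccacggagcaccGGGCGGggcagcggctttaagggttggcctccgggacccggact
Emcn, chr3:137340928-137341077, plus strand: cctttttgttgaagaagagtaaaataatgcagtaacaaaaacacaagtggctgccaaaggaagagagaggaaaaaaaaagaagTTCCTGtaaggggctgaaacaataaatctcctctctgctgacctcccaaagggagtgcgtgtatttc
Bgn, chrX:73483451-73483600, plus strand: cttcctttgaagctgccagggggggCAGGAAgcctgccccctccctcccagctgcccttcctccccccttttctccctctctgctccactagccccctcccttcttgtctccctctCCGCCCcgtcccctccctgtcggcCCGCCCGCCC
Flt1, chr5:147726012-147726161, minus strand: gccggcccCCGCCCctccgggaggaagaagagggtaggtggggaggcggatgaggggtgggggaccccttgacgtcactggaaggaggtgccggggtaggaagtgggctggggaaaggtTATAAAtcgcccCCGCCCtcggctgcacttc
Kdr, chr5:75978456-75978605, minus strand: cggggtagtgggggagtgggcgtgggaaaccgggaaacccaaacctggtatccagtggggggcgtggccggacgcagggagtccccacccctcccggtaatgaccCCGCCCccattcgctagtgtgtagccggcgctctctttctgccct

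The 6 windows shared no layout: Sparc had 0 matches, Igfbp7 had 4 GC boxes, and Flt1 joined a TATA box to 2 GC boxes. Over the 250 bases before the start, CAGGAA was found for 10 of the 23 member genes, against 28.3% of 27025 genes with a promoter sequence. GGGCGG was found for 13 of the 23, against 35.4% of all genes, TATAAA for 3, against 14.3%, CCGGAA for 2, against 13.6%, and AGATAA for 0, against 11.4%. These are matches of letters and not measured binding sites. Col4a1 and Col4a2, which encode the main chains of type IV collagen, lie head to head, and their windows of 250 bases before and 50 after the start overlap by 78 bases at chr8:11312777-11312854.

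Among the 29 measured members, 28 were higher in DN than in CD11b+ cDC by their means, and the median difference was 1.66, against -0.04 over all 17043 genes compared. limma's moderated test with Benjamini-Hochberg adjustment over all genes called 25 of the 29 higher and 0 lower, while 4.3% of all genes were called in either direction and 2.56% were called higher. Because this contrast chose the members, neither count is evidence for them. The balance of calls over all genes, 437 higher and 296 lower, depended on the scaling and was 333 to 531 when arrays were shifted to a common median, a shift that moved the median of all genes to -0.11 and left 25 members called higher. The endothelial receptor and regulator group had 6 of 6 measured members called, with a median difference of 1.61. For junction, surface and caveola genes of endothelium 6 of 7 were called, with a median of 2.43. Basement membrane and matricellular genes had 6 of 6 called and a median of 1.71, interstitial matrix genes 5 of 8 and 0.81, and the growth factor receptors Pdgfra and Pdgfrb were both called, with a median of 0.64. When arrays were left out 1 at a time, 21 of the 25 calls held in all 8 fits, Pecam1 was lost in 4, and Tek, Col4a2 and Col1a2 were each lost in 1. In bulk samples of sorted cells, fewer cells of a type and less RNA per cell cannot be told apart, so a level here is that of the whole sorted sample.

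**Figure D1:**
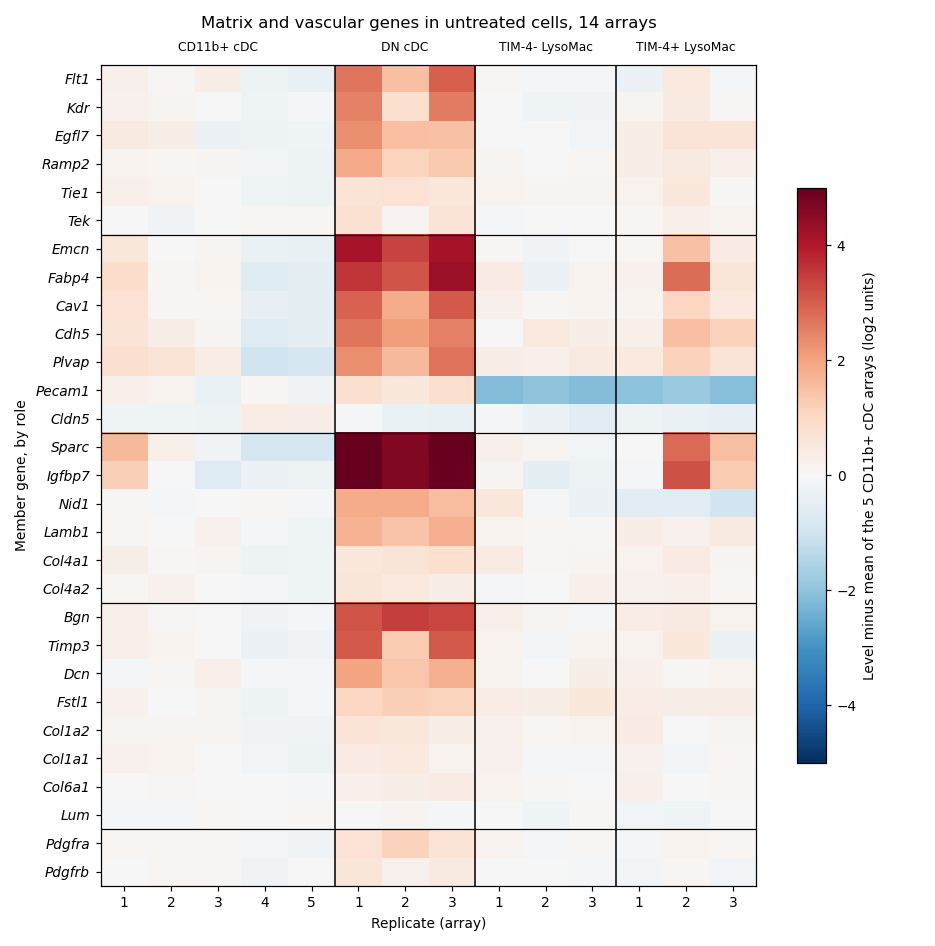
Heat map of the 29 measured members (vertical axis, grouped by role and ordered by the difference of DN and CD11b+ cDC within a role) in the 14 untreated arrays of CD11b+ cDC, DN cDC and both LysoMac groups (horizontal axis, replicate number). Colour is the level minus the mean of the 5 CD11b+ cDC arrays, in log2 units, red for higher and blue for lower; the 3 DN columns are red for most genes, Lum and Cldn5 excepted, and TIM-4+ replicate 2 is the reddest LysoMac column.

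Flt1, a high-affinity VEGF receptor, stood at 6.80, 5.63 and 7.09 in the DN replicates and at 4.35, 4.16, 4.45, 3.85 and 3.73 in CD11b+ cDC, with 4.17, 4.01 and 4.03 in TIM-4- and 3.82, 4.59 and 4.01 in TIM-4+ LysoMac. Every DN array lay above all 11 others, and the means of DN and CD11b+ cDC differed by 2.40 ± 0.23. Kdr, the main signalling receptor for VEGF, read 6.20, 4.46 and 6.22 in DN and 3.90, 3.80, 3.64, 3.45 and 3.60 in CD11b+ cDC, with 3.68, 3.48 and 3.51 in TIM-4- LysoMac and 3.83, 4.13 and 3.75 in TIM-4+ LysoMac. Its difference was 1.95 ± 0.25, and DN replicate 2 sat far below the other DN arrays though still above every array of CD11b+ cDC and LysoMac. Egfl7, a matrix-bound regulator secreted by endothelial cells, read 6.96, 6.15 and 6.10 in DN cDC, 5.07, 4.93, 4.36, 4.39 and 4.44 in CD11b+ cDC, 4.66, 4.62 and 4.51 in TIM-4- LysoMac and 4.94, 5.30 and 5.30 in TIM-4+ LysoMac. Here the difference from CD11b+ cDC was 1.77 ± 0.18, and DN replicate 1 alone was the high array. Of the other receptors and regulators, Ramp2, the co-receptor for adrenomedullin, differed by 1.45 ± 0.15, Tie1, the orphan partner of Tek, by 0.65 ± 0.10, and Tek itself by 0.53 ± 0.11.

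Emcn, a sialomucin on the surface of capillary and venous endothelium, gave the largest difference of the endothelial genes: its level was 7.79, 7.08 and 7.84 in DN cDC and 4.24, 3.68, 3.81, 3.37 and 3.33 in CD11b+ cDC. In LysoMac the same gene read 3.76, 3.52 and 3.66 for TIM-4- and 3.80, 5.16 and 4.11 for TIM-4+, so that every DN array was above all others, with a difference of 3.88 ± 0.23 from CD11b+ cDC. Fabp4, a fatty acid binding protein of capillary endothelium, adipocytes and some macrophages, reached 7.45, 7.04 and 8.15 in DN cDC against 4.76, 3.95, 4.05, 3.27 and 3.40 in CD11b+ cDC. Its LysoMac levels were 4.31, 3.60 and 4.07 for TIM-4- and 4.09, 6.69 and 4.50 for TIM-4+, and TIM-4+ replicate 2 came within 0.5 log2 units of the lowest DN array. The difference from CD11b+ cDC was 3.66 ± 0.41.

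Cav1, the coat protein of caveolae, read 7.10, 6.04 and 7.23 in DN cDC and 4.88, 4.22, 4.26, 3.75 and 3.73 in CD11b+ cDC, a difference of 2.62 ± 0.24, with 4.43, 4.22 and 4.32 in TIM-4- LysoMac and 4.30, 5.19 and 4.65 in TIM-4+ LysoMac. Cdh5, the cadherin of endothelial junctions, stood at 6.80, 6.22 and 6.63 in DN cDC, 4.78, 4.40, 4.27, 3.47 and 3.65 in CD11b+ cDC, 4.08, 4.62 and 4.39 in TIM-4- LysoMac and 4.36, 5.62 and 5.25 in TIM-4+ LysoMac, and its difference from CD11b+ cDC was 2.43 ± 0.25. For both genes the groups did not overlap with DN cDC, and CD11b+ replicates 4 and 5 were the lowest arrays. Plvap, which builds the diaphragms of fenestrated endothelium, stood at 7.28, 6.57 and 7.66 in DN cDC and 5.75, 5.63, 5.32, 3.97 and 4.12 in CD11b+ cDC, with 5.30, 5.22 and 5.41 in TIM-4- LysoMac, 5.46, 6.10 and 5.60 in TIM-4+ LysoMac and a difference of 2.21 ± 0.33. Its CD11b+ arrays fell into a higher set, replicates 1 to 3, and a lower set, replicates 4 and 5. Pecam1, an adhesion molecule of endothelium that leukocytes and platelets also carry, read 7.80, 7.53 and 7.77 in DN cDC and 7.24, 7.15, 6.66, 7.08 and 6.80 in CD11b+ cDC, a difference of 0.72 ± 0.19, and was thus already high in the latter. Cldn5, the claudin of endothelial tight junctions, was the exception of the group, at 4.41, 4.19 and 4.15 in DN cDC and 4.30, 4.29, 4.28, 4.88 and 4.83 in CD11b+ cDC, with overlapping arrays and a difference of -0.27 ± 0.14.

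The largest differences of all members belonged to 2 secreted proteins of the matrix. Sparc, a collagen-binding glycoprotein made by endothelial and mesenchymal cells, read 9.70, 9.18 and 9.74 in DN cDC and 6.18, 4.81, 4.39, 3.74 and 3.71 in CD11b+ cDC. Its level in TIM-4- LysoMac was 4.82, 4.71 and 4.44 and in TIM-4+ LysoMac 4.58, 7.38 and 6.08, and the difference of DN and CD11b+ cDC was 4.97 ± 0.46, a 31.3-fold change. Igfbp7, a secreted binding protein that accumulates around vessels, read 10.43, 9.75 and 10.06 in DN cDC and 6.34, 5.11, 4.50, 4.82 and 4.88 in CD11b+ cDC, a difference of 4.95 ± 0.45 or 30.9-fold. TIM-4- LysoMac stood at 5.26, 4.67 and 4.88 and TIM-4+ LysoMac at 5.02, 8.32 and 6.40. For both genes TIM-4+ replicate 2 was the highest of the 11 arrays outside DN cDC and stayed below the lowest DN array.

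Nid1, nidogen, the linker of laminin and type IV collagen, read 7.18, 7.17 and 6.89 in DN cDC and 5.40, 5.29, 5.31, 5.42 and 5.25 in CD11b+ cDC, with a difference of 1.75 ± 0.20. In contrast to the genes above it was lower in TIM-4+ LysoMac, at 4.81, 4.79 and 4.39, than in TIM-4- LysoMac, at 5.91, 5.25 and 5.06, with no overlap. Lamb1, a laminin chain, differed by 1.66 ± 0.09 between DN and CD11b+ cDC. The type IV collagen genes differed less, Col4a1 by 0.68 ± 0.11 and Col4a2 by 0.48 ± 0.10, and for both every DN array was above every array of the other 3 groups.

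Bgn, biglycan, a small proteoglycan of fibroblasts and vessel walls, gave the tightest separation: 7.09, 7.40 and 7.30 in DN cDC, 4.18, 3.99, 3.92, 3.78 and 3.84 in CD11b+ cDC, 4.19, 4.06 and 3.89 in TIM-4- LysoMac and 4.32, 4.38 and 4.11 in TIM-4+ LysoMac. Its difference from CD11b+ cDC was 3.32 ± 0.09, and the lowest DN array was over 2.5 log2 units above the highest other array. Timp3, a matrix-bound inhibitor of metalloproteinases, stood at 6.91, 5.11 and 6.93 in DN cDC, 4.11, 4.05, 3.89, 3.57 and 3.68 in CD11b+ cDC, 4.03, 3.74 and 4.03 in TIM-4- LysoMac and 4.05, 4.40 and 3.57 in TIM-4+ LysoMac, with a difference of 2.46 ± 0.27 and the widest range among DN arrays of any member, 1.81. Dcn, decorin, a proteoglycan that coats collagen fibrils, read 5.55, 5.00 and 5.39 in DN cDC and 3.52, 3.64, 3.85, 3.49 and 3.48 in CD11b+ cDC, 3.78, 3.63 and 3.87 in TIM-4- and 3.85, 3.64 and 3.76 in TIM-4+ LysoMac, with a difference of 1.72 ± 0.11.

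The collagen genes of the interstitial matrix gave smaller differences. Col1a1 and Col1a2, the chains of type I collagen, differed by 0.35 ± 0.13 and 0.50 ± 0.11, and only the latter was called. Col6a1, a chain of type VI collagen, differed by 0.31 ± 0.09 without being called, although its 3 DN arrays lay above the 5 CD11b+ arrays. Lum, lumican, another collagen-coating proteoglycan, did not separate the groups: 3.02, 3.16 and 2.92 in DN cDC and 2.95, 2.94, 3.10, 3.03 and 3.06 in CD11b+ cDC, a difference of 0.02 ± 0.14 that became -0.05 when arrays were shifted to a common median. Fstl1, a secreted glycoprotein of mesenchymal cells, differed by 1.11 ± 0.09, Pdgfra by 0.85 ± 0.10 and Pdgfrb by 0.43 ± 0.08. Counted over all 29 members, the lowest DN array was above the highest CD11b+ array for 26 and the opposite order was seen for 0, where 4.3% and 5.44% of all genes showed these orders. It was above all 11 other arrays of CD11b+ cDC and LysoMac for 23, as for 2.35% of all genes.

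Set against both LysoMac groups, which share the DN arrays with the contrast above, the same members gave a median difference of 1.52, against -0.02 over all genes. Of 29 members 25 were called higher and 0 lower, and 23 were higher in every DN array with 0 lower in every one, where 13.2% of all genes were called higher and 25.1% in either direction, 14.2% were higher and 12.9% lower in every DN array. The same 3 DN arrays chose the members, so these counts are a description too and no evidence for them. Sparc exceeded LysoMac by 4.20 ± 0.45, Igfbp7 by 4.32 ± 0.44, Emcn by 3.57 ± 0.22 and Bgn by 3.11 ± 0.09. Pecam1 was one member whose place changed: it was 2.78 ± 0.18 higher in DN cDC than in LysoMac, and LysoMac lay -2.06 ± 0.15 from CD11b+ cDC, at 4.81, 4.97 and 4.81 in TIM-4- and 4.95, 5.15 and 4.85 in TIM-4+ LysoMac. LysoMac and CD11b+ cDC, which share the CD11b+ arrays with the first contrast, otherwise had a median difference of 0.18 over the members. It was 0.06 without CD11b+ replicates 4 and 5, a setting chosen after the data were seen. limma called 4 members higher and 2 lower of 29, where 29.5% of all genes were called. These 6 were Fstl1, Bgn, Lamb1 and Cdh5 above and Pecam1 and Cldn5 below, and only Fstl1 was higher and only Pecam1 lower in every LysoMac array, orders that 8.27% and 9.55% of all genes showed. Fstl1 read 4.38, 4.32 and 4.53 in TIM-4- and 4.39, 4.33 and 4.34 in TIM-4+ LysoMac. In CD11b+ cDC it read 4.23, 4.00, 4.16, 3.78 and 3.92. The count of 6 was 11 without CD11b+ replicate 1, 2 without CD11b+ replicate 4 or 5, and 3 without TIM-4- replicate 2 or TIM-4+ replicate 2.

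**Figure D2:**
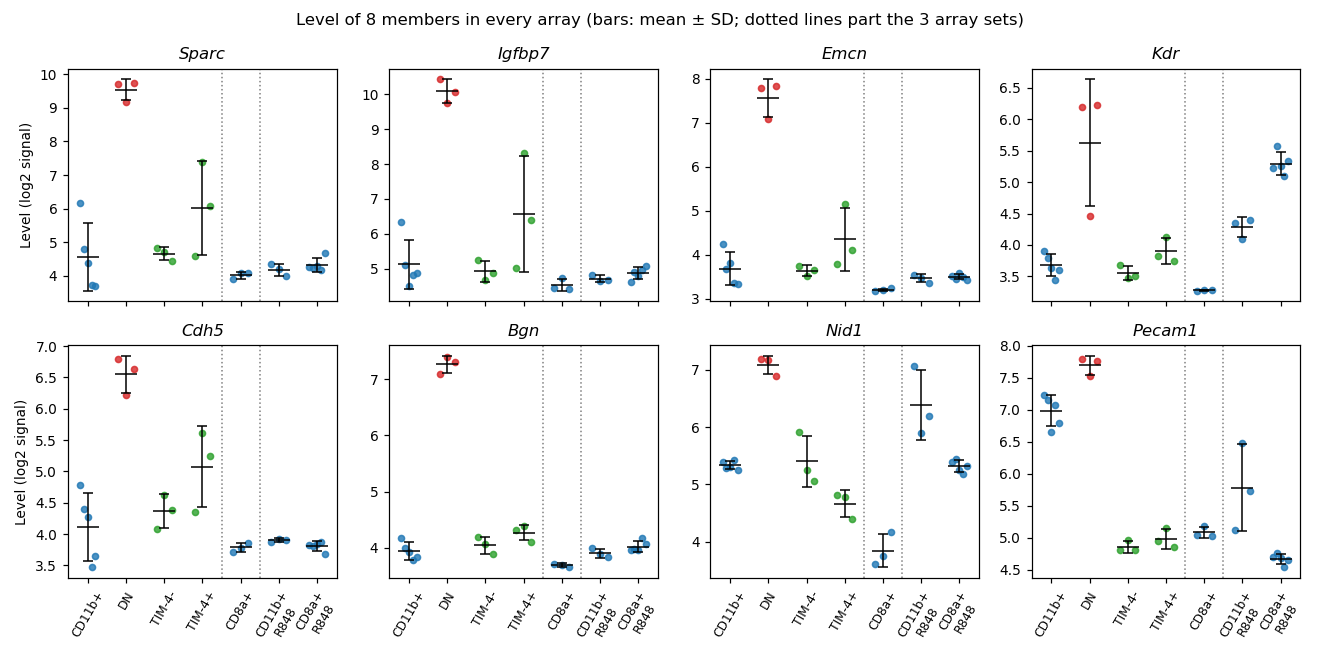
Levels of 8 members (panels) in every array that has a value, by group (horizontal axis), in log2 signal (vertical axis, each panel with its own range). Points are arrays, bars the mean ± SD, and dotted lines separate the 3 array sets, whose levels share no common row order; DN cDC (red) hold the highest array for all 8 genes, and Kdr is higher in CD8a+ than in CD11b+ cDC after R848.

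The members varied among the 3 DN arrays. DN replicate 2 lay more than 0.5 log2 units below both other DN arrays for 8 of the 29 members, Flt1, Kdr, Tek, Emcn, Plvap, Cav1, Sparc and Timp3, where 1.56% of all genes showed this. For 6 members, Tie1, Col1a1, Lum, Bgn, Fstl1 and Pdgfra, it was instead the highest DN array, against 35.3% of all genes. Kdr, Timp3 and Flt1 thus differed from CD11b+ cDC by 2.53, 3.06 and 2.83 without DN replicate 2, against 1.95, 2.46 and 2.40 with it, while Bgn differed by 3.25 to 3.41 whichever array was left out. Without that array 484 genes were called between DN and CD11b+ cDC in place of 733, and 25 members in both cases. Outside the members, DN replicate 2 was as far below the others for 5 of 14 other endothelial genes, among them Myct1 (5.06, 3.36 and 4.30) and Mmrn2 (5.46, 4.11 and 5.25). The same held for 2 of 10 pericyte and smooth muscle genes. These 2 were Rgs5, at 8.01, 6.02 and 8.04 in DN cDC against 4.32, 4.21, 4.15, 4.30 and 3.97 in CD11b+ cDC, and Acta2, at 6.72, 6.17 and 6.69 in DN cDC. Fn1, fibronectin, did not follow it, at 5.60, 5.63 and 5.29 against 3.83, 3.87, 4.00, 3.84 and 3.75 in CD11b+ cDC.

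Arrays outside DN cDC also varied together over the members. TIM-4+ replicate 2 was the highest of the 6 LysoMac arrays for 19 of 29 members, where 11.9% of all genes had this order, and its mean over the members was 4.96, against 4.45 and 4.57 in the other TIM-4+ arrays and 4.32 to 4.48 in TIM-4- LysoMac. CD11b+ replicates 4 and 5 were both below replicates 1 to 3 for 21 of 29 members, where 19.3% of all genes were, with member means of 4.18 and 4.17 against 4.43 to 4.72. The DN means were 6.27, 5.84 and 6.21. When both of those CD11b+ arrays were left out, a setting chosen after the data were seen, 23 of 29 members were still called higher in DN cDC, with a median difference of 1.56.

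**Figure D3:**
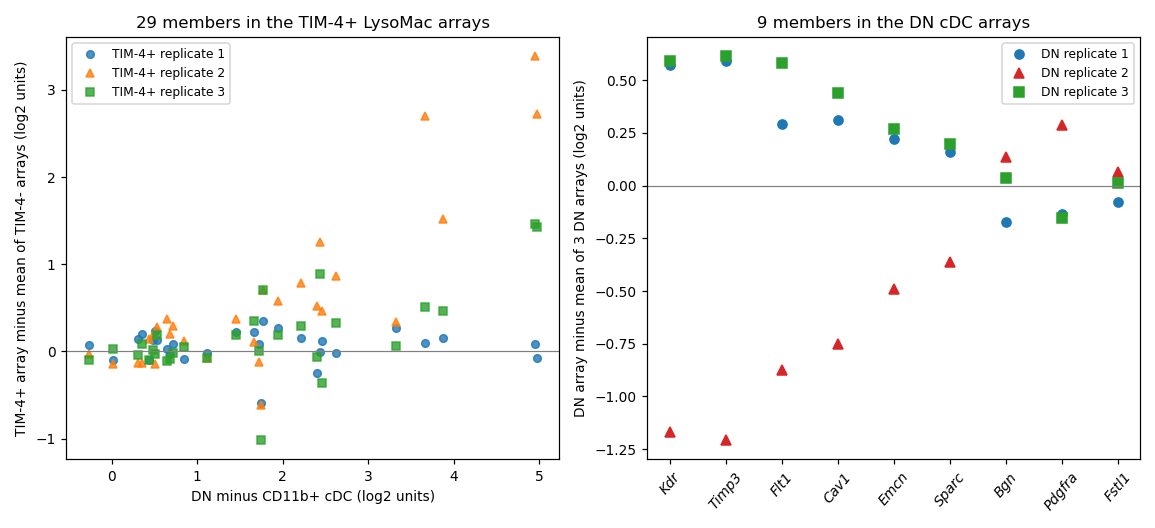
Left, each of 29 members as its difference of DN and CD11b+ cDC (horizontal axis, log2 units) against its level in 1 TIM-4+ LysoMac array minus the mean of the 3 TIM-4- arrays (vertical axis, log2 units), with a symbol per array; TIM-4+ replicate 2 is highest for the genes at the right, Sparc and Igfbp7 among them. Right, the 3 DN arrays for 9 members as deviations from their mean (vertical axis, log2 units), with replicate 2 lowest for Kdr to Sparc and highest for Bgn, Pdgfra and Fstl1.

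TIM-4+ and TIM-4- LysoMac differ in the surface receptor TIM-4, a binder of apoptotic cells, and none of their arrays chose the members, so this contrast was tested. limma called 0 of 29 members at an adjusted p under 0.05, where 0.446% of all genes were called, and 9 of 29 had an unadjusted p under 0.05, where 5.63% of all genes did. The number of genes called was 76 with all arrays, 48 when TIM-4- replicate 1 was left out and 49 when TIM-4- replicate 3 was. Igfbp7 was 1.64 ± 0.51 higher in TIM-4+ than in TIM-4- LysoMac, with a limma adjusted p of 0.308, and was called, at 2.42 with an adjusted p of 0.00773, only when TIM-4+ replicate 1 was left out. Sparc differed by 1.36 ± 0.52 and Fabp4 by 1.10 ± 0.46, in each case with overlapping arrays and no call. For 7 members, Kdr, Tek, Ramp2, Egfl7, Emcn, Plvap and Lamb1, every TIM-4+ array was above every TIM-4- array, where 4.99% of all genes showed this, yet their differences were at most 0.71. Nid1 alone was lower in every TIM-4+ array, where 5.79% of all genes were, by -0.75 ± 0.22, with a limma adjusted p of 0.274. A p that misses the threshold does not show that the LysoMac groups were alike.

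After R848 all 36 members had values, and CD8a+ cDC were compared with CD11b+ cDC from treated mice. The median difference of the members was 0.04, against 0.03 over all 19938 genes, and limma called 2 higher and 2 lower in CD8a+ cDC, where 12.5% of all genes were called, 5.77% higher and 6.72% lower. The 2 higher genes were Kdr and Dcn. Kdr read 5.22, 5.57, 5.26, 5.09 and 5.33 in CD8a+ and 4.35, 4.10 and 4.39 in CD11b+ cDC after R848, a difference of 1.01 ± 0.25 with a limma adjusted p of 0.00795 and no overlap. That call was lost without CD11b+ replicate 2, at 0.92 and an adjusted p of 0.0535. Dcn read 3.90, 3.73, 3.97, 3.83 and 3.63 in CD8a+ and 3.42, 3.47 and 3.28 in CD11b+ cDC, a difference of 0.42 ± 0.11 (limma adjusted p 0.0111). Without CD11b+ replicate 3 it was 0.37, with an adjusted p of 0.0794.

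Pecam1 and Nid1 were lower in CD8a+ than in CD11b+ cDC after R848. Pecam1 read 4.70, 4.76, 4.68, 4.54 and 4.66 in CD8a+ and 5.13, 6.48 and 5.74 in CD11b+ cDC, a difference of -1.12 ± 0.19 (limma adjusted p 0.000174). Nid1 read 5.39, 5.45, 5.26, 5.19 and 5.32 in CD8a+ and 7.06, 5.90 and 6.19 in CD11b+ cDC, a difference of -1.06 ± 0.20 (limma adjusted p 0.000675). In both genes the 5 CD8a+ arrays lay close together, within 0.3 log2 units, and the CD11b+ arrays spread over more than 1 unit. The limma p-values rest on 1 spread per gene for all groups. With the replicate number added to a fit of only these groups, limma adjusted p-values were 0.0853 for Pecam1 and 0.088 for Nid1. Whether replicate numbers pair the samples is not settled. Flt1 and Cldn5 were also higher in every CD8a+ array, a pattern that 8.91% of all genes showed, and Fabp4 and Timp3 lower in every one, as 8.02% of all genes were, without a call. Of the 7 members that lack a value in DN cDC, none was called after R848: Esam stood at 5.75 to 6.68 in CD8a+ and 5.84 to 6.19 in CD11b+ cDC, and was called at 0.52 (limma adjusted p 0.0236) only without CD8a+ replicate 1, while Cd34, Lama4 and Sparcl1 stayed between 3.27 and 3.77 in all 8 arrays. Eng read 4.49 to 4.82, Sox18 4.21 to 4.51 and Col3a1 4.74 to 5.20 over the same arrays.

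Treated and untreated arrays lie in separate array sets, so treatment and set cannot be told apart, and the levels are given side by side without a test. Over the 23 members measured everywhere, the array means were 3.92 to 4.00 in untreated CD8a+ cDC, 4.25 to 4.36 in CD11b+ cDC after R848, 4.26 to 4.34 in CD8a+ cDC after R848, 4.09 to 4.68 in untreated CD11b+ cDC, 4.22 to 4.38 in TIM-4- LysoMac and 4.33 to 4.97 in TIM-4+ LysoMac. DN cDC stood apart at 5.96 to 6.43. Kdr read 3.27, 3.29 and 3.28 in untreated CD8a+ cDC, below all 5 of the treated arrays given above. Flt1 went the other way, at 5.38, 5.32 and 5.45 in untreated CD8a+ cDC and 4.13, 4.46, 4.16, 4.31 and 4.32 after R848. Sparc stood at 3.90, 4.07 and 4.09 in untreated CD8a+ cDC, at 4.35, 4.19 and 3.99 in CD11b+ cDC after R848 and at 4.27, 4.23, 4.28, 4.18 and 4.68 in CD8a+ cDC after R848, all below the lowest DN array by more than 4 log2 units. For Emcn these levels were 3.19, 3.20 and 3.24, 3.55, 3.48 and 3.37 and 3.52, 3.46, 3.59, 3.50 and 3.44, and for Bgn 3.71, 3.70 and 3.65, 3.99, 3.89 and 3.83 and 3.95, 3.97, 3.95, 4.17 and 4.06, all below the lowest DN array of the gene. Over the 11 arrays of untreated CD8a+ cDC and both R848 groups, Igfbp7 ranged from 4.43 to 5.08, Fabp4 from 2.91 to 4.67 and Cav1 from 3.55 to 3.90. Timp3 ranged from 3.12 to 4.15, Cdh5 from 3.68 to 3.93 and Egfl7 from 4.21 to 4.93. Each stayed below its lowest DN array. Some other members did not, Kdr and Nid1 among them. Kdr in CD8a+ cDC after R848, at 5.09 to 5.57, was above DN replicate 2, at 4.46. Nid1 in CD11b+ replicate 1 after R848, at 7.06, was above its lowest DN array, at 6.89. Plvap, with no value in untreated CD8a+ cDC, ranged from 3.82 to 4.36 after R848. In untreated CD8a+ cDC Nid1 read 3.61, 3.76 and 4.17, Dcn 3.18, 3.33 and 3.22 and Pecam1 5.05, 5.19 and 5.03. Flt1 read 3.73, 4.01 and 3.74 in CD11b+ cDC after R848.

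Genes of vessels and matrix outside the members, also listed with earlier results of these arrays known, were read in the contrast of DN and CD11b+ cDC, where 2.56% of all genes were called higher and 1.74% lower. Of 14 other blood endothelial genes 10 were called higher and 0 lower, with a median of 0.87. Ptprb, the phosphatase that opposes Tek, read 6.82, 5.84 and 6.90 in DN and 4.63, 4.47, 4.12, 3.61 and 3.58 in CD11b+ cDC, a difference of 2.44 ± 0.21, and Aplnr, the apelin receptor, read 6.54, 6.13 and 6.78 and 5.11, 4.94, 4.88, 4.34 and 4.35, a difference of 1.76 ± 0.19. Mmrn2, Gpihbp1, S1pr1 and Myct1 followed with 1.39 ± 0.19, 1.18 ± 0.24, 1.11 ± 0.23 and 1.09 ± 0.20. Of 10 pericyte and smooth muscle genes 8 were called higher and 0 lower, with a median of 0.71. Rgs5, a regulator of G-protein signalling in pericytes, differed by 3.17 ± 0.32, Myl9, a smooth muscle myosin light chain, by 2.17 ± 0.14, Acta2, smooth muscle actin, by 1.75 ± 0.10, Mcam, an adhesion molecule of pericytes and endothelium, by 1.19 ± 0.14, Des, desmin, by 0.78 ± 0.12, and Tagln, transgelin, by 0.64 ± 0.11.

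Of 16 other fibroblast and reticular cell genes 3 were called higher and 0 lower, with a median of 0.06. Those were Pcolce, an enhancer of procollagen processing, at 0.86 ± 0.18, Col6a3 at 0.65 ± 0.09 and Cxcl12, a chemokine of stromal cells, at 0.57 ± 0.12. Of 16 genes of matrix processing and regulation 7 were called higher and 1 lower, led by Fn1 at 1.65 ± 0.09, Lamc1, a laminin chain, at 1.48 ± 0.18, Mmp2, a gelatinase, at 1.21 ± 0.26, and Serpinh1, a collagen chaperone, at 0.99 ± 0.15, with Mmp14, a membrane-bound metalloproteinase, lower at -0.92 ± 0.19. Mmp2 was far higher in LysoMac, at 10.76 to 11.20 in the 6 arrays, against 6.41, 6.65 and 5.86 in DN cDC. Of 10 angiogenic ligand genes 2 were called higher, Bmp4 at 1.60 ± 0.15 and Vegfc, a growth factor of lymphatic vessels, at 0.49 ± 0.13. Madcam1, the addressin of gut venules, was the 1 call, at 0.61 ± 0.14, among 4 genes of high endothelial venules, and it stood higher still in TIM-4+ LysoMac, at 6.05, 5.45 and 5.90.

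**Figure D4:**
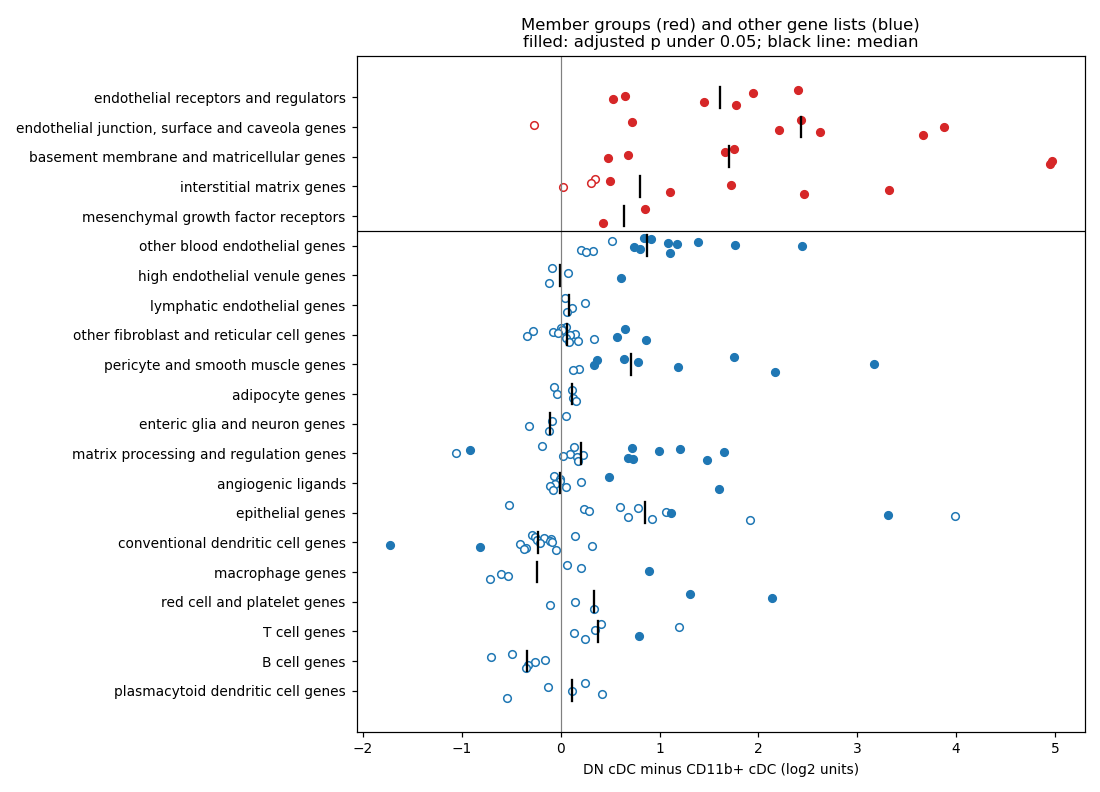
Difference of DN and CD11b+ cDC (horizontal axis, log2 units) for each measured gene of the member groups (red) and of the other lists (blue), 1 list per row. Filled points have a limma adjusted p under 0.05 over all genes, open points do not, and black lines are list medians; the medians of other blood endothelial, pericyte and epithelial genes are 0.87, 0.71 and 0.85, and those of fibroblast, lymphatic, high endothelial venule, adipocyte and glial genes lie between -0.11 and 0.11.

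Markers of other cell types were higher in DN than in CD11b+ cDC for some lists and not for others, and their part in the members' levels was not tested. limma called 0 of 4 lymphatic endothelial genes (1 with an unadjusted p under 0.05), 0 of 5 adipocyte genes (0 unadjusted) and 0 of 4 enteric glia and neuron genes (0 unadjusted), with medians of 0.08, 0.11 and -0.11. Mean levels of the 14 other endothelial genes ran from 4.93 to 5.56 in DN arrays, 4.17 to 4.56 in CD11b+ cDC, 4.32 to 4.46 in TIM-4- and 4.49 to 4.68 in TIM-4+ LysoMac. For the 10 pericyte genes these ranges were 5.25 to 5.54, 4.25 to 4.46, 4.50 to 4.57 and 4.48 to 4.65. For 16 fibroblast and reticular genes they were 4.60 to 4.70, 4.45 to 4.54, 4.53 to 4.68 and 4.65 to 4.81.

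Epithelial genes varied from array to array in every group. Of 12 such genes 11 were higher in DN than in CD11b+ cDC by their means, with a median difference of 0.85, beside 0.87 for the other endothelial genes. An unadjusted p under 0.05 was found for 7, and for 16.9% of all genes. limma called 2 of them higher, Fabp1, a fatty acid binding protein of enterocytes, at 3.31 ± 0.87 and Vil1, villin of the brush border, at 1.12 ± 0.30. The mean over the list was 6.24, 6.31 and 7.13 in DN cDC and 5.42, 6.90, 4.77, 4.92 and 4.79 in CD11b+ cDC. The groups overlapped through CD11b+ replicate 2 alone, and the other CD11b+ arrays lay below every DN array. Against both LysoMac groups, all 12 genes were higher in DN cDC by their means, with a median of 1.08. There limma called 7 of them higher and 0 lower, where 13.2% of all genes were called higher. Among 5 red cell and platelet genes Ppbp and Pf4, platelet chemokines, were called higher, at 2.14 ± 0.32 and 1.31 ± 0.25, while Itga2b, a platelet integrin, read 5.11, 5.39 and 5.11 in DN and 5.36, 5.21, 5.37, 5.24 and 5.41 in CD11b+ cDC. By their means 4 of the 5 genes were higher in DN than in CD11b+ cDC, with a median of 0.34. For 3 of them, Ppbp, Pf4 and Alas2, the unadjusted p was under 0.05. Against LysoMac, limma called 1 of the 5 higher in DN cDC, Ppbp, and 1 lower, Pf4. All 6 T cell genes were higher by their means, with a median of 0.38 and 4 unadjusted p-values under 0.05, and Lat was called, at 0.79 ± 0.17. Of 6 macrophage genes only Fcgr1 was called, higher at 0.89 ± 0.15, while the list median was -0.23 and 3 of the 6 were higher by their means. An unadjusted p under 0.05 was found for 4 of them, Fcgr1 and also Adgre1, Cd68 and Csf1r, which were lower in DN cDC. Of 6 B cell and 5 plasmacytoid dendritic cell genes none was called (1 and 2 with an unadjusted p under 0.05). By their means 0 of the 6 B cell genes were higher in DN cDC, with a median of -0.34.

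The DN arrays carried the markers of conventional dendritic cells. The mean of 16 cDC genes was 9.72 to 9.99 in DN arrays, 10.06 to 10.29 in CD11b+ arrays and 7.80 to 8.54 in LysoMac, whereas that of 6 macrophage genes was 6.75 to 6.84, 6.75 to 7.06 and 8.90 to 9.21. By their means 2 of the 16 cDC genes were higher in DN than in CD11b+ cDC, and the median difference was -0.22. For 4 of the 16, Batf3, Ccr7, Irf8 and Itgax, the unadjusted p was under 0.05, as for 16.9% of all genes. limma called 0 of the 16 higher and 2 lower in DN than in CD11b+ cDC, Ccr7, a chemokine receptor of migrating dendritic cells, at -1.73 ± 0.29 and Irf8 at -0.82 ± 0.19. Ptprc, CD45, read 10.93, 10.95 and 10.97 in DN cDC and 10.92, 11.14, 10.97, 10.96 and 10.98 in CD11b+ cDC, a difference of -0.05 ± 0.10. Flt3, the receptor that drives cDC development, was 1 of the 2 genes higher by their means. It read 10.42, 10.45 and 10.38 and 10.39, 10.53, 10.15, 10.17 and 10.11, a difference of 0.15 ± 0.11.

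Over the 14 untreated arrays of DN cDC, CD11b+ cDC and LysoMac, most members followed each other. Pearson's r of a member with the mean of the other 28 was 0.996 for Emcn, 0.987 for Cav1 and 0.972 for Ramp2, fell to 0.527 for Pecam1, and was 0.093 for Lum and -0.289 for Cldn5. These correlations rest largely on the gap of the 3 DN arrays from the others and describe these arrays only. By the same measure the 15 genes outside the members most like their mean were Tmem204 (r = 0.986), Plpp3 (0.982), Epas1 (0.979), Esm1 (0.976), Pdlim1 (0.975), Prex2 (0.974), Ptprb (0.974), Plpp1 (0.971), Mcam (0.970), Cd93 (0.968), Adgrf5 (0.965), Myl9 (0.961), Tjp1 (0.960), Ednrb (0.960) and Mmp10 (0.958). Their differences of DN and CD11b+ cDC ran from 0.93 for Prex2 to 3.38 for Plpp3, a lipid phosphatase, and stood at 2.83 for Epas1, the hypoxia-inducible factor HIF-2 alpha, and 2.48 for Esm1, a proteoglycan of endothelial tip cells.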

How the data were processed

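The data are 25 Affymetrix Mouse Gene 1.0 ST arrays in 7 groups. Per the submitters' processing notes, the authors deposited log2 signals made with RMA in Affymetrix Expression Console 1.4.1. It is not given in the sources used here whether the 25 arrays were normalized as 1 batch. Array medians were 4.29 to 4.6, and each group had 3 to 5 arrays.

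The columns did not share 1 row order. Correlations across rows were at least 0.938 within 3 array sets (untreated CD11b+, DN and LysoMac; untreated CD8a+; R848) and 0.0755 to 0.225 between them, and the deposited row names fitted the R848 set. A monotone alignment (dynamic programming, band of 300 rows) matched the 28939 annotated rows of the other sets to the R848 arrays through levels of untreated and treated CD11b+ or CD8a+ cDC, and not through DN levels. The 6617 rows before the first annotated row were left out. A row was accepted when 3 gap settings agreed, it lay over 2 rows from a gap, and the 10 rows on each side correlated at 0.7 or more. This kept 81.2% and 82.6% of rows, against 132 and 144 rows with the order rolled as a control. Transcript clusters of 1 gene then correlated at 0.792 over 598 genes, against 0.124 as deposited. Simulated data were made from CD8a+ and CD11b+ cDC after R848, with rows taken out and put in. In 5 such runs, the share of kept rows with a wrong partner reached 1.43% at most. These runs lay within 1 array set and kept at least 85% of rows, so that share need not hold for the untreated sets. A member's value can still be that of a neighbouring row.

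Rows with 1 gene symbol gave 19938 genes, 17043 of them in the untreated CD11b+, DN and LysoMac set. limma 3.58.1 (R 4.3.3) fitted the 7 group means, with Benjamini-Hochberg adjustment over all genes compared and calls at an adjusted p under 0.05. On simulated data for TIM-4+ against TIM-4- LysoMac (15074 genes), 93 of 100 genes changed 2-fold and 100 of 100 changed 4-fold were called, with 11 false calls. The simulated noise was independent between genes, with 1 spread per gene for all groups. It therefore did not cover array shifts shared by many genes or the wider spread of some members in TIM-4+ LysoMac. The series design calls the replicates independent; p-values measure the spread between these pools.

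The members and all gene lists were chosen with earlier results of these data known. Values are printed for the 14 members with the largest DN and CD11b+ difference and for those called between the LysoMac groups or after R848, as ranges for some genes in CD8a+ cDC and the R848 groups; up to 6 called genes are named from each other list, and the 15 genes most correlated with the members' mean are named. Cldn5, Lum, Rgs5, Fn1, Itga2b, Ptprc, Flt3, Mmp2 and Madcam1 were singled out after their values were seen. Promoter sequences are from RefSeq (GRCm38.p6).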

Additional observations from a re-analysis of the deposited data

Results flagged for a closer look

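In 65 sets of values with 5 arrays, Dixon's test at the 95% level set apart 1 array in 2, where chance alone gives about 1 in 20. Ramp2 in CD8a+ cDC after R848 was low in replicate 4, at 3.74, with the other 4 arrays at 4.08 to 4.19. Sparc in CD8a+ cDC after R848 was high in replicate 5, at 4.68, with the other arrays at 4.18 to 4.28. Neither gene was called between CD8a+ and CD11b+ cDC after R848.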

How the results depend on the processing

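No comparison changed the direction of its member median under the alternatives run. In DN against CD11b+ cDC, the median was 1.28 over 36 members with every row that had a partner, against 1.66 over 29. That setting takes in the 7 members whose rows could not be placed with enough certainty. Genes called were 335 with only the groups compared and 195 at 2-fold or more. In DN cDC against LysoMac, the median was 1.83 over 23 members without dim genes and 1.23 over 36 with every partnered row. It was 1.52 over 29 in the main fit. At 2-fold or more, 1430 genes were called. In LysoMac against CD11b+ cDC, members called were 3 of 23 without dim genes. Of 29 they were 2 with only the groups compared, 2 with array weights and 1 at 2-fold or more. They were also 2 without CD11b+ replicates 4 and 5, a setting chosen after the data were seen, and 1295 genes passed 2-fold. In TIM-4+ against TIM-4- LysoMac, genes called were 29 with only the groups compared and 36 at 2-fold or more. After R848, 7 members were called with only the groups compared, among them Fabp4, Flt1 and Timp3, and 742 genes passed 2-fold. Apart from the stricter fold and the other sets of members, the causes were not tested.

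Deviations of same-numbered arrays correlated weakly, at -0.0973 to 0.177, against -0.155 to 0.0967 for arrays of other numbers. Every same-numbered pair was above every other pair for DN cDC with TIM-4- LysoMac (0.0507 to 0.148 against at most 0.035). That also held for TIM-4+ LysoMac with CD11b+ cDC (0.0388 to 0.124 against at most 0.036). Whether replicate numbers pair the samples is thus not settled. With a replicate block, members called were 14 and genes 241 in DN against CD11b+ cDC, members 25 and genes 4666 in DN cDC against LysoMac, members 2 in LysoMac against CD11b+ cDC (median 0.06), genes 12 between the LysoMac groups, and genes 1514 after R848, where Dcn, Nid1 and Pecam1 had adjusted p-values of 0.0761, 0.088 and 0.0853 by limma, and Flt1 (0.0408) and Timp3 (0.0476) passed.

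Leaving out 1 array at a time gave 21 to 25 members and 484 to 919 genes called in DN against CD11b+ cDC (median 1.49 to 1.70), 23 to 26 and 3558 to 4181 in DN cDC against LysoMac (1.41 to 1.64), 2 to 11 and 4410 to 5165 in LysoMac against CD11b+ cDC (0.13 to 0.22), 0 to 1 and 48 to 77 between the LysoMac groups (0.10 to 0.19), and 3 to 5 and 1778 to 2372 after R848 (0.02 to 0.08).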
